A study of Ovis aries with 12 samples.

Results

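The transcripts described here were abundant in both sheep tissues of the series, one carrying the title code Co and the other the code T. CPM is the number of reads counted on a gene, divided by all reads counted in the library and multiplied by 1000000. The genes were chosen by their mean CPM. A gene was taken when it was among the 150 highest over the 6 Co libraries and also among the 150 highest over the 6 T libraries. Of the 24616 genes in the files, 86 met both limits. A run of identifiers from ENSBTAG00000043541 to ENSBTAG00000043584 was left out of the set, which removed 12 of the 86 and left 74 genes. Another 61 genes outside that run were among the 150 highest of Co only, and 64 of T only. Levels, places and the difference between the tissues chose the 74 genes, so they are given below as descriptions without a test.

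There are 12 RNA sequencing libraries from sheep in 4 groups of 3: Co-L and T-L carry the label low fertility, and Co-H and T-H the label high fertility. All T libraries are labelled endometrium, which lines the uterus. Co-H 3 is labelled corpus luteum, an ovarian gland that secretes progesterone once an egg has been released, while the other 5 Co libraries are labelled ovary. In the headers of the files every Co sample is named CL and every T sample Endo. No source used here explains the codes in the titles, gives the breed, age, cycle stage or treatment of the animals, or says how fertility was rated. The design text calls the samples pooled and speaks of controls and treated samples without saying which they are. No label ties the 3 libraries within a group to different animals or pools, so p-values speak only of the variation among these libraries, which may be technical.

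In most mammalian tissues a small number of genes supplies a large share of the messenger RNA, and those found at high levels in many tissues typically encode ribosomal proteins and translation factors, cytoskeletal proteins, mitochondrial enzymes and chaperones. A corpus luteum also makes large amounts of RNA for steroid synthesis, and an endometrium for secreted proteins and extracellular matrix. The files give cattle gene identifiers without names, and a table of sheep genes matched 0 of these identifiers, so none of the 74 genes could be named or given a role. Marker genes of luteal, endometrial or other cells could not be looked up either, and the tissue labels were not checked against them. CPM is not corrected for gene length, so a place in the order of a library says how many reads a gene took, not how many molecules it had.

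The libraries held between 9627378 and 17852552 counts. The lowest count of any of the 74 genes in any library was 6758, where counting error alone is 1.22% of the value. Counting error was thus small for every one of these values. All 74 genes passed the filter on low counts that 14839 of the 24616 genes passed. A pair of scales is used. CPM of the library total is the plain share of the library. CPM with TMM scaling divides by a further factor, the trimmed mean of M values, that brings the bulk of the genes to the same level. That factor ran from 0.745 to 0.864 in Co-L, from 0.847 to 1.00 in Co-H and from 1.03 to 1.23 in T, so directions between groups are given on both scales. Co-L 3 and T-H 1 stood apart from the rest of their tissue in these genes, and the values with and without them are given where they matter.

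The 74 genes took 15.3% ± 1.41 (SD, n = 3) of all counts in Co-L and 10.9% ± 1.15 in Co-H. They took 15.5% ± 0.234 in T-L and 14.3% ± 1.501 in T-H. The Co-L libraries were at 14.2%, 14.8% and 16.9%, and the Co-H libraries at 12.2%, 9.95% and 10.6%. Every Co-L library was above every Co-H library. The T-L libraries were at 15.6%, 15.3% and 15.7%, and the T-H libraries at 12.7%, 15.7% and 14.4%. The T groups overlapped, with T-H 1 lowest and T-H 2 inside the range of T-L. The 95% Wilson interval of each share reached at most 0.0230 percentage points to either side, counting error only, so the differences between libraries of a group were far wider than counting error. In bulk tissue fewer cells of a type and less RNA per cell cannot be told apart.

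The 10 most abundant of the 74 genes took between 3.47% and 5.99% of a library, and they did not follow the other 64 genes everywhere. They held 5.60%, 5.99% and 5.40% of counts in Co-L 1, Co-L 2 and Co-L 3, so Co-L 3 was the lowest of its group. The other 64 genes held 8.59%, 8.78% and 11.5%, so Co-L 3 was the highest by a wide margin. In Co-H the 10 genes held 4.69%, 3.47% and 4.13%, and the 64 held 7.48%, 6.48% and 6.44%. Both parts were thus lower in all 3 Co-H libraries than in any Co-L library. In T the low share of T-H 1 lay mostly in the 10 genes: they held 3.57% there against 4.57% to 5.90% in the other 5 T libraries. The 64 genes held 9.15% in T-H 1 against 9.69% to 10.3%.

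**Figure D1:**
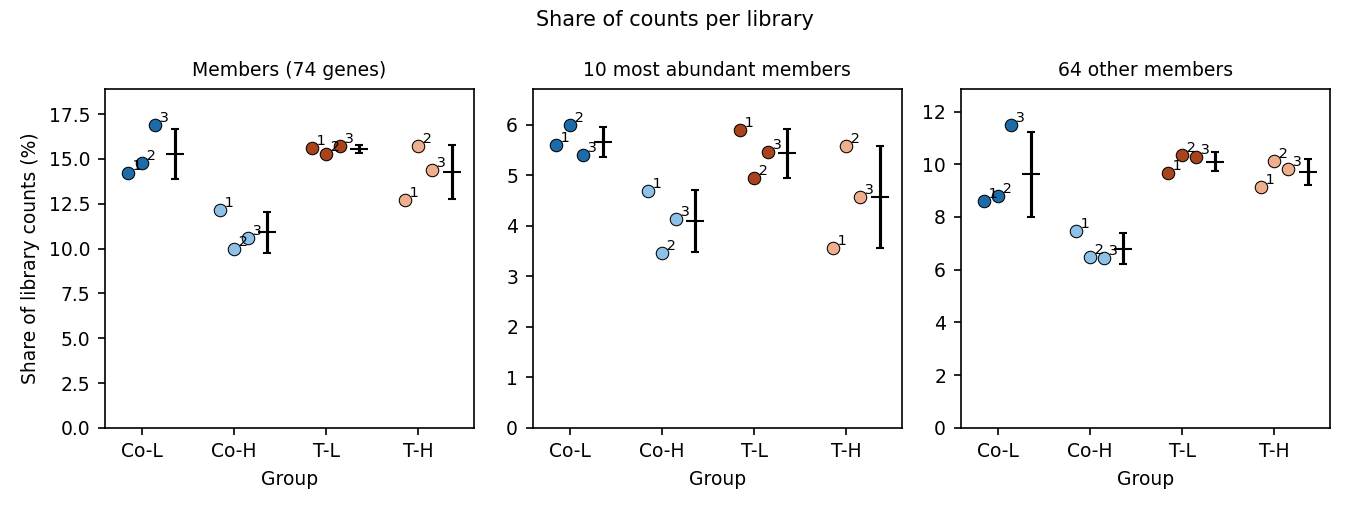
Share of all library counts, in percent, taken by the 74 genes, by their 10 most abundant and by the other 64, with 1 point per library, numbered by replicate, in each group; the dash and bar beside each group are the mean and SD of 3 libraries. The Co-H points lie below the Co-L points in each panel, and Co-L 3 is lowest of Co-L among the 10 and highest among the 64.

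Other sets of genes moved differently between the Co groups. The 61 genes abundant in Co only took 9.74%, 11.6% and 8.41% of counts in the Co-L libraries and 12.3%, 11.7% and 11.7% in the Co-H libraries, where all 3 libraries were above all of Co-L. The 42 identifiers left out took 18.0% ± 1.26 (SD, n = 6) in Co and 6.80% ± 0.489 in T, and in Co their range of 17.3% to 20.2% in Co-L overlapped that of 16.5% to 18.1% in Co-H. In T-H 1 the 64 genes abundant in T only took 16.2% of counts, against 7.42% to 8.30% in the other T libraries. T-H 1 entered the mean that chose these 64 genes, so its higher share is only a description. Since shares of a library sum to a whole, a higher share of other genes lowers that of the 74, and the part of this in the differences was not tested.

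Single libraries differed in how many of the genes they placed high. Of the 74 genes, 49 were among the 150 highest in every one of the 12 libraries and the other 25 dropped out of them in at least 1 library, with 202 as the lowest place reached. No stability is read from this, because the mean over these same libraries chose the genes. The 3 libraries of Co-L had 70, 73 and 72 of them among their 150 highest genes, and those of Co-H had 62, 62 and 58. The T-L libraries had 73, 72 and 71, and the T-H libraries 68, 72 and 73, so Co-H held the fewest. The best places by mean CPM were 12 in Co and 3 in T, because the places above them went to genes abundant in one tissue or left out by the rule.

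Order among the 74 genes was kept within a tissue more closely than between tissues. Spearman's rho across the 74 genes, given as a description since the genes share their libraries, ran from 0.708 to 0.968 over the 15 pairs of Co libraries, with a median of 0.919. Over the 15 pairs of T libraries it ran from 0.865 to 0.977, with a median of 0.941. Between a Co and a T library it ran from 0.554 to 0.734 over 36 pairs, with a median of 0.651. The low end within Co came from Co-L 3, whose rho with the other Co libraries was 0.708 to 0.872; without it the range was 0.893 to 0.968.

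ENSBTAG00000021466 had the highest mean over both tissues. It was at 9206, 7285 and 5879.9 CPM in the Co-L libraries, 6687, 3832 and 5063 in Co-H, 14417, 9890.3 and 11711 in T-L, and 6164, 12464 and 9998 in T-H. Its mean was 6325 ± 1863 CPM (SD, n = 6) in Co, place 15, and 10774 ± 2816 in T, place 3. The Co groups overlapped, as did the T groups, and T-H 1 was close to the Co level. ENSBTAG00000013472, at places 14 and 4, was nearly level between the tissues on library totals with 6563 ± 2048 CPM in Co and 6669 ± 1897 in T. ENSBTAG00000014534 was at 4471 ± 997 CPM in Co, place 19, and 5666 ± 688 in T, place 9. ENSBTAG00000013103 was at 5786 ± 2252 CPM in Co, place 17, and 4183 ± 1427 in T, place 13. These 4 genes were among the 20 highest of each tissue, and ENSBTAG00000014534 had the smallest SD of the 4 in both.

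Further down, ENSBTAG00000010156 was at 3242 ± 911 CPM in Co, place 25, and 4847 ± 459.8 in T, place 12. ENSBTAG00000026199 was at 3571 ± 519 CPM in Co and 3105 ± 723 in T, places 24 and 23. ENSBTAG00000004258 was at 2769 ± 409 CPM in Co and 3429 ± 647 in T, places 30 and 21. With TMM scaling ENSBTAG00000014534 and ENSBTAG00000004258 were lower in T, at ratios of T over Co of 0.914 and 0.896. The other 3 of the 10 most abundant genes, ENSBTAG00000014835, ENSBTAG00000010899 and ENSBTAG00000003505, owed their place mainly to one tissue and are described with the tissue differences.

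At the limits of the rule the values just inside and just outside were close. In Co the lowest of the 74 genes, ENSBTAG00000003205, was at place 147 with 732 ± 225 CPM. ENSBTAG00000046358, at place 152 with 705 ± 150 CPM, stayed out although it was at place 63 in T. In T the lowest of the set, ENSBTAG00000015114, was at place 149 with 802 ± 61.3 CPM, and ENSBTAG00000015910 stayed out at place 151 with 791 ± 58.1 CPM. Both pairs differed by less than the SD over the 6 libraries, so which genes stand at the edge of the set depends on small differences.

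Between the tissues the sign of the typical difference depended on the scale. On library totals 58 of the 74 genes had the higher mean in T and 16 in Co, with a median log2 ratio of T over Co of 0.35, beside 0.39 over all genes tested. With TMM scaling 24 were higher in T and 50 in Co, with a median of -0.13, beside -0.03 over all genes tested. On either scale the 74 genes sat close to the median gene. The mean levels of 66 of the 74 (89.2%) were within 2-fold of each other on library totals, beside 63.0% of the genes tested, which the rule favours, since a gene had to be high in both.

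Co and T libraries did not overlap for 7 genes higher in T and 7 lower in T on library totals, where 31.4% and 10.7% of all genes tested did so in the same directions. With TMM scaling the numbers were 2 and 9, where 19.7% and 20.5% of all genes did so. Nothing is read from these counts, because the rule used the same values. On edgeR's test 64.4% of all genes tested differed between the tissues.

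ENSBTAG00000003505 had the highest ratio of T over Co. It was at 1726, 1601 and 1454 CPM in the Co-L libraries, 937, 878 and 1145 in Co-H, 7151, 6393 and 6732 in T-L, and 4718, 8869 and 5925 in T-H. Every T library was above every Co library, and the mean ratio was 5.14-fold, or 3.71-fold with TMM scaling. ENSBTAG00000013468 was at 592 to 1119 CPM in Co and 1487 to 2062 in T, a ratio of 2.38, or 1.78 with TMM scaling. Both were thus higher in T on either scale, and the first stood at place 71 in Co but at place 5 in T.

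In the other direction ENSBTAG00000010899 was at 5342, 8075 and 6554 CPM in the Co-L libraries, 10077, 6863 and 7341 in Co-H, 1716, 2446 and 2118 in T-L, and 1516, 2977 and 2169.8 in T-H. Every Co library was above every T library, with a ratio of Co over T of 3.42, or 4.68 with TMM scaling. ENSBTAG00000014835 was at 9382, 9877 and 8598 CPM in the Co-L libraries, 5683, 4556 and 6357 in Co-H, 3756, 2466 and 2686 in T-L, and 1392, 2873 and 2334 in T-H. Its ratio of Co over T was 2.87, or 4.01 with TMM scaling. These genes took places 13 and 12 in Co and 31 and 26 in T, so they ranked high in both tissues.

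On library totals some of the 74 genes had almost the same mean CPM in both tissues, and their ratios moved away from 1 with TMM scaling. ENSBTAG00000020308 was at 1449, 1179 and 1250.4 CPM in the Co-L libraries, 1367, 1268 and 1254 in Co-H, 1266, 1172 and 1370.4 in T-L, and 1171, 1226 and 1241 in T-H. On that scale all 12 libraries lay in a single narrow range, with means of 1295 ± 96.6 in Co and 1241 ± 73.8 in T. With TMM scaling every Co library, at 1254 to 1676, was above every T library, at 952 to 1178, and the ratio of Co over T was 1.41. ENSBTAG00000011559 was at 1184 ± 310.2 CPM in Co and 1263 ± 101 in T, a ratio of T over Co of 1.07, or 0.768 with TMM scaling, with the wider spread in Co. ENSBTAG00000013472 had a ratio of T over Co of 1.02 on library totals and 0.728 with TMM scaling. Which tissue was higher thus depended on the scale for ENSBTAG00000011559 and ENSBTAG00000013472.

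**Figure D2:**
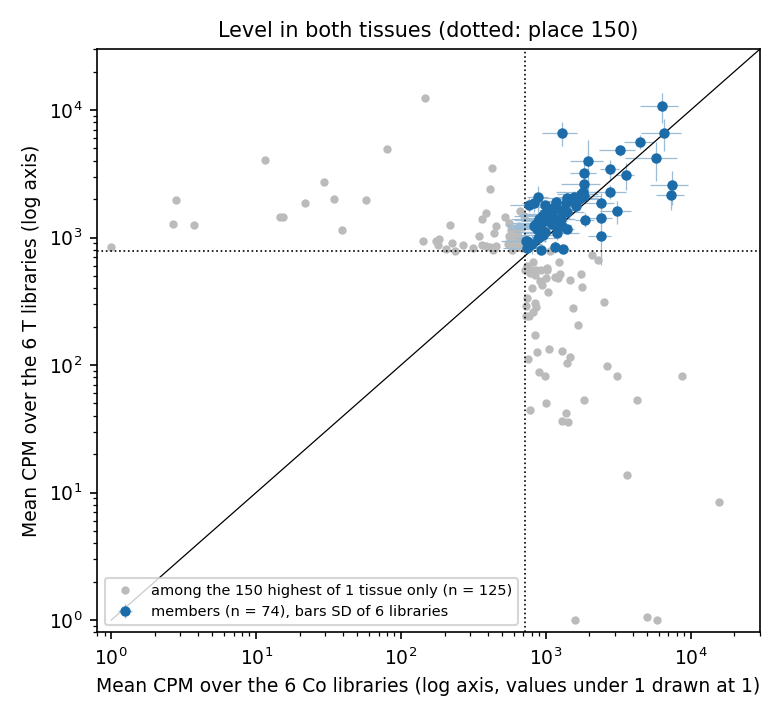
Mean CPM over the 6 T libraries against mean CPM over the 6 Co libraries, both on log axes, for the 74 genes (blue, bars are the SD of 6 libraries) and for the genes among the 150 highest of 1 tissue only (gray); the solid line marks equal levels and the dotted lines place 150. The 74 genes fill the corner above both dotted lines, and 66 of them lie within 2-fold of the line of equal levels.

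On library totals most of the 74 genes followed a common course over the Co libraries. Co-L 3 was the highest Co library for 55 of the 74 genes, and the lowest was Co-H 2 for 36 and Co-H 3 for 31. The ratio of Co-L 3 to the mean of Co-L 1 and Co-L 2 had a median of 1.41 over the 74 genes and ranged from 0.713 to 1.68. It was above 1 for 60 genes and above 1.5 for 25. Over all genes tested the median of this ratio was 0.942. It was 1.45 over the 64 less abundant members and 0.935 over the 10 most abundant, of which 4 were above 1.

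In T the libraries were closer, and T-H 1 was the one apart. It was the lowest T library for 53 genes, and its ratio to the mean of the other 5 T libraries had a median of 0.835 and ranged from 0.493 to 2.33. That median lay near the 0.851 of all genes tested, whereas the 10 most abundant genes had a median of 0.642. The highest T library was T-L 2 for 23 genes, T-L 3 for 17, T-H 2 for 13 and T-L 1 for 11, so no single T library was highest for most genes.

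**Figure D3:**
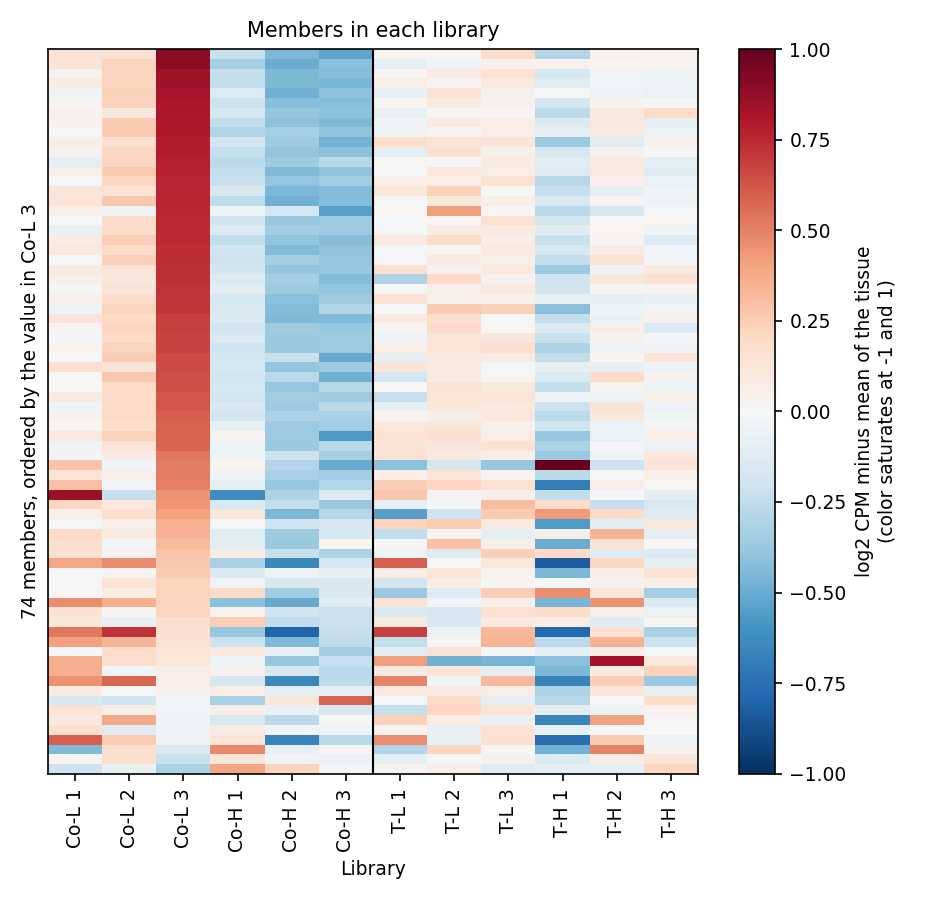
Each row is 1 of the 74 genes and each column 1 library; color gives log2 CPM of the library total minus the mean of the gene over the 6 libraries of that tissue, red above and blue below, saturating at -1 and 1, with rows ordered by the value in Co-L 3. Co-L 3 is red for most rows, Co-H 2 and Co-H 3 are blue, and the T columns are pale apart from T-H 1.

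The fertility labels were not used to choose the genes, so high and low fertility were compared by test: edgeR's quasi-likelihood test on the counts of all 14839 genes with TMM scaling, adjusted by Benjamini-Hochberg over all of them and called under 0.05. In Co, 41 of the 74 genes passed as lower in Co-H and 0 as higher, where 4.78% of all genes tested were called, 2.32% as lower and 2.46% as higher. The log2 difference was below 0 for 71 of the 74 genes, with a median of -0.86 (1.81-fold lower in Co-H), beside -0.07 over all genes tested, and a range of -1.19 to 0.17. The median standard error, derived from the log2 difference and the test statistic, was 0.209.

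The called genes were close to the threshold: their adjusted p-values by edgeR and Benjamini-Hochberg lay between 0.0463 and 0.0492. At an unadjusted p under 0.05, 64 of the 74 genes passed, all lower in Co-H, where 28.8% of all genes passed and 15.7% as lower. The differences were graded. Of the 10 genes that were lower by at least 1 on the log2 scale 10 were called, and of the 38 between -1 and -0.75 30 were called. Of the 12 between -0.75 and -0.5 only 1 was, and none of the other 14 was.

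ENSBTAG00000019147 was at 909.7, 993 and 1397 CPM of the library total in Co-L and 692, 592 and 612 in Co-H. Every Co-H library was below every Co-L library, and Co-L 3 was the highest. The means were 1099.9 ± 261 and 632 ± 53.0 CPM (SD, n = 3), and the log2 difference was -1.05 (SE 0.198, adjusted p = 0.0463 by edgeR with Benjamini-Hochberg). In T the same gene was at 1161, 1249.8 and 1218 CPM in T-L and 1042, 1171 and 1130.3 in T-H, with a log2 difference of -0.05 (SE 0.196).

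ENSBTAG00000001360 was at 938, 1004 and 1599 CPM in the Co-L libraries and at 683, 609.9 and 643 in the Co-H libraries. The groups did not overlap, and the Co-L mean rested partly on Co-L 3. The log2 difference was -1.13 (SE 0.221, adjusted p = 0.0463 by edgeR with Benjamini-Hochberg). Its T libraries were at 1130.3, 1174 and 1242 CPM in T-L and 1229.6, 1216 and 1223 in T-H, a single range. On library totals the T libraries lay inside the range of Co-L. With TMM scaling the Co-L libraries were at 1085, 1348 and 2085 CPM, and 5 of the 6 T libraries were at 953 to 1068, below them. The Co-H libraries lay below all T libraries on both scales, with at most 683 CPM on library totals and 806 with TMM scaling.

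Among the 10 most abundant genes the test called 4 as lower in Co-H. ENSBTAG00000014835 (values above) had a log2 difference of -0.995 (SE 0.25) without overlap between the Co groups, and unlike ENSBTAG00000019147 its highest Co-L library was Co-L 2. ENSBTAG00000013103 was at 7814, 8948 and 6070.2 CPM in the Co-L libraries and at 4159, 3109 and 4619 in the Co-H libraries, a log2 difference of -1.19 (SE 0.28). ENSBTAG00000010156 and ENSBTAG00000003505 had log2 differences of -0.87 (SE 0.21) and -0.94 (SE 0.20). The largest adjusted p-value of these 4 genes, by edgeR with Benjamini-Hochberg, was 0.0483.

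Of the 3 genes with a log2 difference above 0 in Co none passed. ENSBTAG00000021499 was at 2064, 2262 and 1909 CPM in the Co-L libraries and at 3132, 2785 and 2347 in the Co-H libraries. On library totals every Co-H library was above every Co-L library, but with TMM scaling the groups overlapped and the log2 difference was 0.17 (SE 0.183, adjusted p = 0.576 by edgeR with Benjamini-Hochberg). ENSBTAG00000013468 was at 665, 646 and 729.5 CPM in the Co-L libraries and at 592, 808 and 1119 in the Co-H libraries, which overlapped (log2 difference 0.03, SE 0.179). The third was ENSBTAG00000010899, one of the genes higher in Co than in T, with a log2 difference of 0.04 (SE 0.28).

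For most of the 74 genes the direction in Co did not depend on the scale. On library totals the Co groups did not overlap for 53 genes lower in Co-H and 1 higher, where 6.13% and 18.0% of all genes did so. With TMM scaling it was 59 lower and 0 higher, where the shares of all genes were 13.5% and 9.70%. Without the scaling factor the median log2 difference was -0.61 beside 0.17 over all genes, and 28 of the 74 genes were called lower, where 8.69% of all genes were called in either direction. Relative to the median of all genes the median difference was -0.78 on that scale and -0.79 with TMM scaling.

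The calls in Co rested on single libraries more than the direction did. Without Co-L 3 the number called fell to 0 of 74, with a smallest adjusted p of 0.134 by edgeR with Benjamini-Hochberg, while 71 genes still had a log2 difference below 0 and 55 passed at an unadjusted p under 0.05, where 20.2% of all genes did. The median was then -0.56, and 0.00662% of all genes were called. Leaving out Co-H 2, Co-H 3 or any of the 6 T libraries also gave 0 calls, where at most 0.0132% of all genes were called. Leaving out Co-L 2 gave 1 call, where 0.0462% of all genes were called. Leaving out Co-L 1 gave 47, where 7.47% were, and leaving out Co-H 1 gave 59, where 20.5% were. DESeq2 called 57 of the 74 and 15.2% of all genes, so the higher counts went with more calls over all genes. A fit to the 6 Co libraries alone called 0 of the 74 and 0.00741% of all genes. A fit without the count filter also called 0 of the 74, where 0.0152% of all genes were called. The smallest adjusted p of the 74 by edgeR with Benjamini-Hochberg was then 0.0508. In each fit with 0 calls nearly all calls over all genes were thus lost too, beside 4.78% called in the test above.

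The 25 genes that were over 1.5 times as high in Co-L 3 as in the other Co-L libraries included 21 of the 41 called genes, with a median log2 difference of -0.96, and of -0.61 without Co-L 3. The other 49 genes included 20 called genes, with medians of -0.74 and -0.52. Both parts were thus lower in Co-H with and without that library. The split used Co-L 3, which also enters the Co-L mean, so nothing is read from the higher call count of the first part. Since a high value in Co-L 3 could have helped a gene into the set, the genes were also chosen without it. This gave 72 genes, 71 of them shared, of which 38 were called lower. Of the 138 genes outside the left-out run that were among the 150 highest of T, a choice that used no Co library, 60 were called lower in Co-H. These 138 are the 74 genes and the 64 abundant in T only. Of the 49 genes among the 150 highest of every library 25 were called lower. All of these calls came from the fit to all 12 libraries, Co-L 3 included, where 2.32% of all genes were called lower. The sets share many genes, so they are not separate checks.

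The lower level in Co-H was not limited to the 74 genes. Of all genes tested, 2.32% were called lower and 2.46% higher, with a median log2 difference of -0.07. Of the 64 genes abundant in T only, 19 (29.7%) were called lower and 0 higher, with a median of -0.74. Of 44 genes at places 151 to 300 in both tissues, 17 (38.6%) were called lower and 0 higher, with a median of -0.51. Of the 61 genes abundant in Co only, 2 (3.28%) were called lower, near the share of all genes, and 0 higher, with a median of -0.11. Among the 20 left-out identifiers that could be tested 0 were called by edgeR, with a median of -0.38. At an unadjusted p under 0.05, 5 of these 20 passed, where 28.8% of all genes did. Differences between these sets were not tested.

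**Figure D4:**
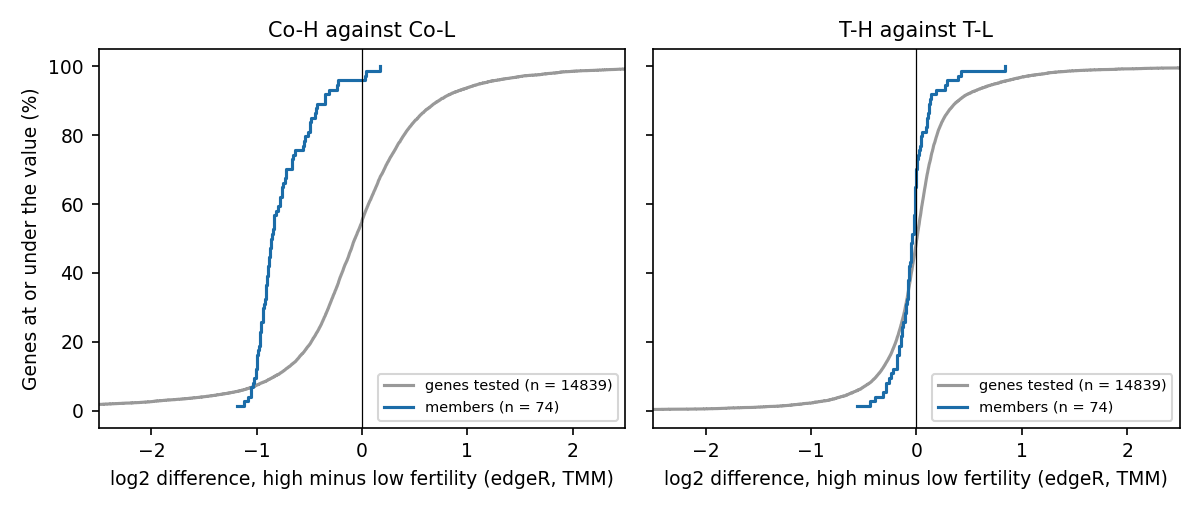
Share of genes, in percent, at or under each log2 difference between high and low fertility (edgeR with TMM scaling), for the 74 genes (blue) and all 14839 genes tested (gray), in Co (left) and T (right). In Co the blue curve lies left of the gray one with a median of -0.86 against -0.07, and in T both cross 50% near 0.

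In T none of the 74 genes passed the fertility test. The edgeR test called 0 of the 74, where 0.00% of all genes were called, and DESeq2 also called 0. At an unadjusted p under 0.05, 1 of the 74 passed, where 4.10% of all genes did. The median log2 difference of T-H against T-L was -0.04 beside 0.01 over all genes, 51 genes were below 0 and 23 above, and 62 of the 74 lay within 0.25 of 0. The median standard error was 0.207, close to that in Co.

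Libraries of T-H and T-L did not overlap for 16 genes lower in T-H and 0 higher on library totals, where 6.60% and 2.82% of all genes did so. With TMM scaling it was 12 lower and 1 higher, where the shares were 5.31% and 5.04%. ENSBTAG00000013103 had the lowest log2 difference in T, -0.57 (SE 0.276). It was at 6391, 3809.7 and 4983 CPM in T-L and 2325, 4419.9 and 3171 in T-H, and the groups overlapped. ENSBTAG00000013472 was at 8997, 6298 and 8048 CPM in T-L and 4053, 7620.1 and 4999 in T-H, with overlap and a log2 difference of -0.44 (SE 0.261).

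ENSBTAG00000012330 was the gene with an unadjusted p under 0.05 in T, and its difference lay on the other side. It was at 2804, 3323 and 2871 CPM in T-L and 7598, 3232 and 4079.5 in T-H. T-H 1 stood far above the rest, and T-H 2 was inside the range of T-L on this scale but above it with TMM scaling. The log2 difference was 0.84 (SE 0.337, adjusted p = 1 by edgeR with Benjamini-Hochberg), and it was 0.29 without T-H 1. ENSBTAG00000038488 was at 1553, 1882 and 1724 CPM in T-L and 1923, 2340.1 and 1737 in T-H, which overlapped, with a log2 difference of 0.29 (SE 0.171).

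Averaged over both tissues, high against low fertility gave 0 calls among the 74 genes by edgeR, where 0.0202% of all genes were called, and the smallest adjusted p by Benjamini-Hochberg was 0.174. At an unadjusted p under 0.05, 55 genes passed, all lower in high fertility, where 19.2% of all genes passed and 10.3% as lower. DESeq2 called 33, where it called 3.85% of all genes, and edgeR without Co-H 1 called 27, where it called 9.85%. The median log2 difference was -0.45. ENSBTAG00000013103 had the lowest value, -0.88 (SE 0.196), with differences below 0 in both tissues. ENSBTAG00000013066 was at 2045, 961 and 1539.6 CPM in the Co-L libraries, 734, 909.7 and 1027 in Co-H, 1292, 1094 and 1114 in T-L, and 903, 1076 and 1001 in T-H. On library totals its T groups did not overlap and its Co groups did, through Co-L 2. With TMM scaling it was the reverse: the T groups overlapped and the Co groups did not. The log2 difference was -0.59 (SE 0.142). The highest values, 0.13 (SE 0.129) for ENSBTAG00000021499 and 0.09 (SE 0.201) for ENSBTAG00000010899, were within a standard error or so of 0.

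The difference between the tissues in the fertility contrast was tested directly. The contrast in T minus that in Co was called for 0 of the 74 genes by edgeR, where 0.00% of all genes were called, and DESeq2 called 2, where it called 0.721% of all genes. The smallest adjusted p by edgeR with Benjamini-Hochberg was 0.257, so a call in Co and none in T does not show that the tissues differed. At an unadjusted p under 0.05, 48 of the 74 genes passed, where 16.3% of all genes did. The value was above 0 for 72 genes, with a median of 0.79 beside 0.07 over all genes, a range of -0.07 to 1.59 and a median standard error of 0.294. Without the scaling factor the median was 0.48 beside -0.24 over all genes, and 24 genes passed unadjusted, where 19.5% of all genes did. ENSBTAG00000001360 had a difference of 1.25 (SE 0.310, adjusted p = 0.257 by edgeR with Benjamini-Hochberg) and ENSBTAG00000038488 of 0.96 (SE 0.242). The lowest values were -0.07 for ENSBTAG00000021499 and -0.02 for ENSBTAG00000013468, both near 0.

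Of the 41 genes called lower in Co, 34 had a log2 difference below 0 in T, as did 51 of all 74 and 7267 of the 14839 genes tested. With TMM scaling 10 of the 74 genes were lower in high fertility without overlap in both tissues, where 0.856% of all genes were. The groups of 1 gene, ENSBTAG00000012330, lay in opposite order without overlap, where 0.984% of all genes did so. Across the 74 genes the log2 differences in Co and T, which share no library, had a Pearson r of 0.295 and a Spearman rho of 0.302, given as a description since genes are not independent replicates.

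Spread within groups was widest in Co-L. The coefficient of variation (CV), the SD over 3 libraries divided by their mean, had a median over the 74 genes of 21.9% in Co-L, 9.54% in Co-H, 6.48% in T-L and 11.2% in T-H on library totals. Over all genes tested, most of which have fewer counts and so more counting error, the medians were 21.9%, 17.9%, 14.4% and 17.3%. On this scale the abundant shared genes were as variable as the median gene in Co-L, and less so in the other 3 groups. Co-L 3, the highest Co library for 55 of the 74 genes, added much of the Co-L spread. The mean of the 4 group medians of the 74 genes was 12.3%. It was 8.68% without Co-L 3, the lowest value with any single library left out. The 44 genes at places 151 to 300 in both tissues had medians of 13.2%, 8.73%, 6.98% and 11.2%, below the 74 genes in Co-L by a wide margin. With TMM scaling the 74 genes had medians of 26.3%, 18.3%, 6.21% and 7.67%, and all genes tested 20.2%, 19.2%, 14.3% and 14.8%. The 74 genes were then more variable than the median gene in Co-L, close to it in Co-H and less variable in both T groups.

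On library totals the CV was under 10% for 15 of the 74 genes in Co-L, 39 in Co-H, 54 in T-L and 34 in T-H. It was over 20% for 44 genes in Co-L, against 6 in Co-H, 6 in T-L and 16 in T-H. ENSBTAG00000018588 had the smallest mean CV over the 4 groups, 6.32%. It was at 978, 1081 and 1151 CPM in the Co-L libraries, 961, 884 and 878 in Co-H, 1579, 1892 and 1814 in T-L, and 1774, 1845 and 1871 in T-H. Every T library was above every Co library on this scale. With TMM scaling the tissues overlapped, since T-L 1 was at 1344 and Co-L 2 and Co-L 3 at 1451 and 1501.

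ENSBTAG00000020308 followed with 6.60% and lay at 1171 to 1449 CPM in all 12 libraries on that scale, though not with TMM scaling (values above). ENSBTAG00000017475 had a mean CV of 6.66% and lay at 1077 to 1227 CPM in Co and 684 to 927 in T, with T-H 1 lowest. ENSBTAG00000006270 and ENSBTAG00000048107 had mean CVs of 8.54% and 8.63%. None of these 5 steadiest genes was called in a fertility contrast by edgeR; in Co their log2 differences ran from -0.49 to -0.23, all below 0.

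The largest mean CV was that of ENSBTAG00000001745, 25.8%. It was at 3035, 2648 and 2545 CPM in the Co-L libraries, 2283, 1813 and 2007 in Co-H, 1296, 693 and 702 in T-L, and 726, 1724 and 1045 in T-H. Its spread lay in T, where T-L 1 and T-H 2 were well above the others, while the Co groups were tight and did not overlap. The next were ENSBTAG00000021466 at 25.6%, ENSBTAG00000013103 at 24.0%, ENSBTAG00000012330 at 23.2% and ENSBTAG00000010899 at 23.1%. In each of these 5 genes the CV was largest in T-H, and 3 of the 5 were among the 10 most abundant.

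**Figure D5:**
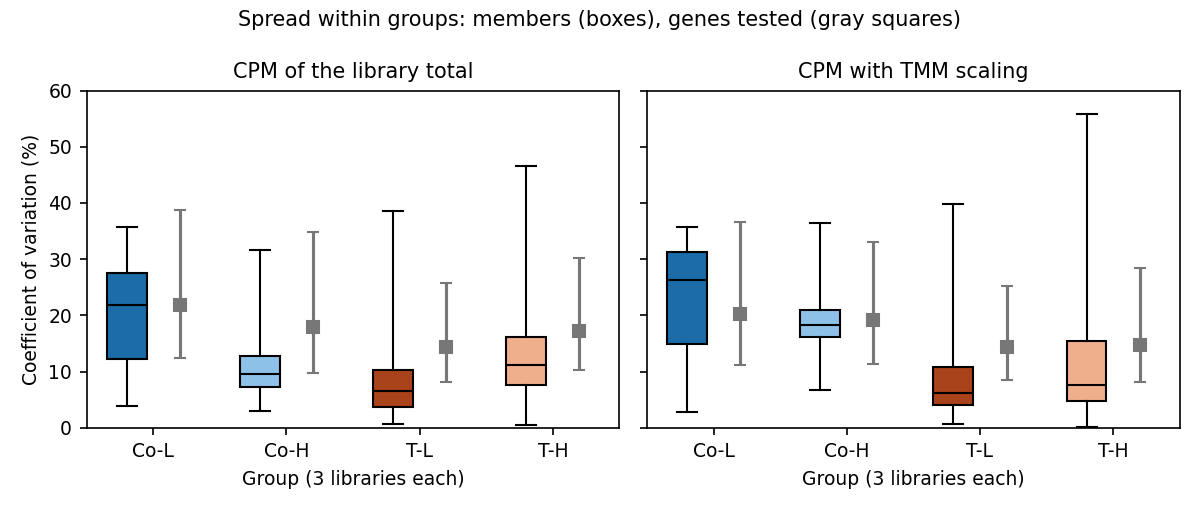
Coefficient of variation, in percent, over the 3 libraries of each group, on library totals (left) and with TMM scaling (right); boxes show the quartiles and full range over the 74 genes, and gray squares with bars the median and quartiles of all genes tested. The boxes are lowest in T-L, with a median of 6.48% on library totals, and highest in Co-L at 21.9%, level with the gray square there.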

How the data were processed

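Frozen tissue was extracted with Trizol, and TruSeq RNA libraries were sequenced, per the labels' protocols. The files deposited by the authors hold raw read counts for 24616 genes in each of 12 libraries, with cattle identifiers in their gene column. Bowtie 0.12.2 and, for 7 libraries, the cattle build bosTau8 are named per the submitters' processing notes, which name no build for the 5 libraries labelled ovary. No source used here gives the counting tool, annotation or strand setting, so reads of near-identical, overlapping or antisense genes cannot be told apart, and whether sheep reads were lost on cattle genes was not tested. Samples were grouped by title. The files of Co-L 1 and T-H 3 needed a blank line skipped and a header that runs into the first gene read.

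CPM, shares, places and coefficients of variation were computed in Python 3.11.15 with pandas 2.3.3. Fertility contrasts were fitted to all 12 libraries with edgeR 4.0.16 in R 4.3.3 (filterByExpr with a minimum count of 10, TMM, quasi-likelihood test, Benjamini-Hochberg over 14839 genes, called under 0.05), after the script was tested on simulated data. This test returns no standard error, so the SE of a log2 difference is its size divided by the square root of the F statistic. Alternatives were other scalings and filters, DESeq2 1.42.0, a replicate block, fits to 1 tissue, each library left out in turn, and other ways to choose the genes. Fits without a scaling factor, the threshold of 0.1, the choice without Co-L 3 and the choice on T alone were added after seeing the data.

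The members and lists were chosen with earlier results of these data known. Genes named are the 10 highest by mean level, the 5 with the smallest and the 5 with the largest mean coefficient of variation, the 3 with a tissue ratio nearest to 1, those at the limits of the rule and, since no identifier could be named, at most 2 in each direction of a comparison, by tissue ratio or smallest unadjusted p. ENSBTAG00000010899 is also named in Co as the last of 3 genes above 0. Planned gene lists and cell type markers could not be used without names. Same-numbered libraries were checked for pairing: the deviations of 18 pairs correlated at -0.287 to 0.249, so the numbers were not taken to pair samples. Coordinates and sequences were not used here.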

Additional observations from a re-analysis of the deposited data

Results flagged for a closer look

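The fertility groups of ENSBTAG00000012330 lay in opposite order in Co and T. With TMM scaling every Co-H library was below every Co-L library, and every T-H library was above every T-L library. The log2 contrast in T minus that in Co was 1.59 (SE 0.477, adjusted p = 0.257 by edgeR with Benjamini-Hochberg), so the difference did not pass the test. On library totals the T groups overlapped, since T-H 2 was at 3232 CPM and T-L 2 at 3323. In Co it was at 2341, 1883 and 2740.2 CPM in Co-L and 1944, 1565 and 1352 in Co-H, where Co-L 2 lay inside the range of Co-H. Its T difference was 0.29 without T-H 1, which held 7598 CPM.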

How the results depend on the processing

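Of the 74 genes 41 were called lower in Co. The number was 0 without a count filter, 0 with a replicate block, 0 in a fit to the 6 Co libraries alone and 0 to 59 with single libraries left out. In the fits that called 0 of the 74, at most 0.0152% of all genes were called. The cause was not tested for the filter and the block. The median log2 difference of the 74 was -0.61 without a scaling factor and -0.95 to -0.56 with single libraries left out. Over both tissues DESeq2 called 33, and 0 to 27 were called with single libraries left out. For the contrast in T minus that in Co, DESeq2 called 2, and 0 to 3 were called with single libraries left out. The 3 came without Co-H 1, a fit that also called 20.5% of all genes in Co, so nothing is read from them. The median of this contrast was 0.48 without a scaling factor and 0.51 to 0.86 with single libraries left out. The replicate numbers were not found to pair the samples (own number best in 14 of 36 comparisons). With 3 libraries per group this check cannot exclude pairing. The replicate block changed no other call count.

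Choosing the 100 highest gave 45 genes. As a share of counts outside the left-out identifiers the 74 genes took 18.8% in Co-L, 13.2% in Co-H and 16.7% in T-L. The median log2 ratio of T over Co was -0.13 with TMM scaling. With single libraries left out, signs turned for ENSBTAG00000013468 in Co (-0.18 without Co-H 3, range -0.18 to 0.26) and in the tissue difference (0.19 without Co-H 3, range -0.26 to 0.19), for ENSBTAG00000010899 over both tissues (-0.01 without Co-H 1 and -0.016 without T-H 2, range -0.016 to 0.21), and for ENSBTAG00000021499 in the tissue difference (0.024 without Co-H 1, range -0.23 to 0.024).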

Other observations

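On library totals 4 of the 10 most abundant genes followed a course of their own, a pattern seen in the plot of the single libraries and chosen after its values were seen. ENSBTAG00000021466, ENSBTAG00000013472, ENSBTAG00000014835 and ENSBTAG00000013103 were each highest in T-L 1 and lowest in T-H 1 among the T libraries and lowest in Co-H 2 among the Co libraries, and Co-L 3 was the highest Co library for none of them. No other gene of the 74 had this course. Their deviations from the tissue mean over the 12 libraries correlated with each other at 0.878 or more over the 6 pairs, with a median r of 0.924, beside 0.615 over all 2701 pairs of the 74 genes. Together they took from 1.55% to 3.55% of counts in Co and from 1.39% to 3.36% in T.

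By contrast, 54 genes were highest in Co-L 3 and lowest in Co-H 2 or Co-H 3 among the Co libraries. The median r of their deviations was 0.910 over 1431 pairs, but the lowest was -0.323, so not all pairs moved together. They took from 5.79% to 11.3% of counts in Co but 9.14% to 10.2% in T. Of these 54 genes 36 were called lower in Co-H by edgeR, as were 41 of all 74 and 2.32% of all genes tested. Of the 4 genes above 2 were called lower. The course picked the genes in both sets from the same Co libraries that the test compared. The correlations and the call counts are therefore descriptions, and nothing is read from them. Whether either set shares a function could not be looked up without gene names.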
